A study of Mus musculus with 4 samples.

Results

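The contactins, the L1 family and the neural cell adhesion molecules are cell-surface proteins of the immunoglobulin superfamily. The 10 genes described here were chosen by name: Cntn1, Cntn2, Cntn3, Cntn4, L1cam, Chl1, Nrcam, Nfasc, Ncam1 and Ncam2. All 10 were found among the 55573 genes of the deposited table by their Ensembl identifiers. They were measured by RNA sequencing in 4 libraries of SmoWT cells, which are medulloblastoma cells of the mouse, of the Sonic Hedgehog (SHH) subtype, cultured as neurospheres. Of these, 2 libraries came from cells given 0.1 µM GDC0449 (vismodegib, which inhibits the Hedgehog signal transducer Smoothened) for 24 h. The other 2 libraries came from cells given the vehicle DMSO for the same time. The cells of both groups derive from spontaneous tumours of C57BL/6 mice that were Ptch1+/- and Trp53-/-, so the controls carry both alleles as well. The labels give neither the number of tumours nor whether replicates were separate cultures, so the p-values cover the spread of these samples alone, and that spread may be technical.

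The libraries held 16329721 to 20790030 reads in genes. Gli1, the transcription factor that reports Hedgehog activity, was at 38.8 and 32.7 CPM (counts brought to one common library size) with GDC0449, against 281 and 263 CPM with DMSO. Trp53 reads were counted in all libraries (59.7 to 80.1 CPM), and the labels do not say which part of the gene is deleted, so they check nothing. Markers of granule neuron progenitors, the cells this tumour resembles, were present: 7 of 8 passed the filter on low counts. Of the oligodendrocyte markers, Olig1 had 0 reads in the 4 libraries together and Olig2 and Sox10 had 2 each. Of the astrocyte markers, Aqp4 and Aldh1l1 had 0.

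Contactins are held in the membrane by a lipid anchor, whereas L1 family proteins span it and bind ankyrins, and through them the spectrin skeleton, with their short tails. NCAMs exist in both forms and can carry long polysialic acid chains that weaken adhesion. In the developing cerebellum these proteins guide granule neurons as they leave the cell cycle, send out parallel fibres and migrate. Cntn2, also called TAG-1, marks granule neurons just after their last division.

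Among the 10 genes, Cntn2 and Nfasc were higher with GDC0449, Nrcam, Ncam1, L1cam and Cntn4 were measured and not called, and Cntn1, Cntn3, Chl1 and Ncam2 had almost no reads. The threshold for a call was 1.5-fold in either direction at an edgeR adjusted p under 0.05. The 6 genes that passed the filter on low counts included 2 called higher and 0 called lower. With edgeR, 0 were lower at an unadjusted p below 0.05 either, and DESeq2 and limma-voom also called 2 higher and 0 lower. Of all 15472 genes tested, 8.68% were called higher and 3.85% lower. At a fold threshold of 2 the family had 1 called higher (Cntn2) and 0 lower, beside 4.19% and 2.02% of all tested genes. With the adjusted p alone it had 2 higher and 0 lower, beside 18.1% of all tested genes in each direction. The median log2 fold change of the 6 was -0.03, beside 0.01 for all tested genes.

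**Figure D1:**
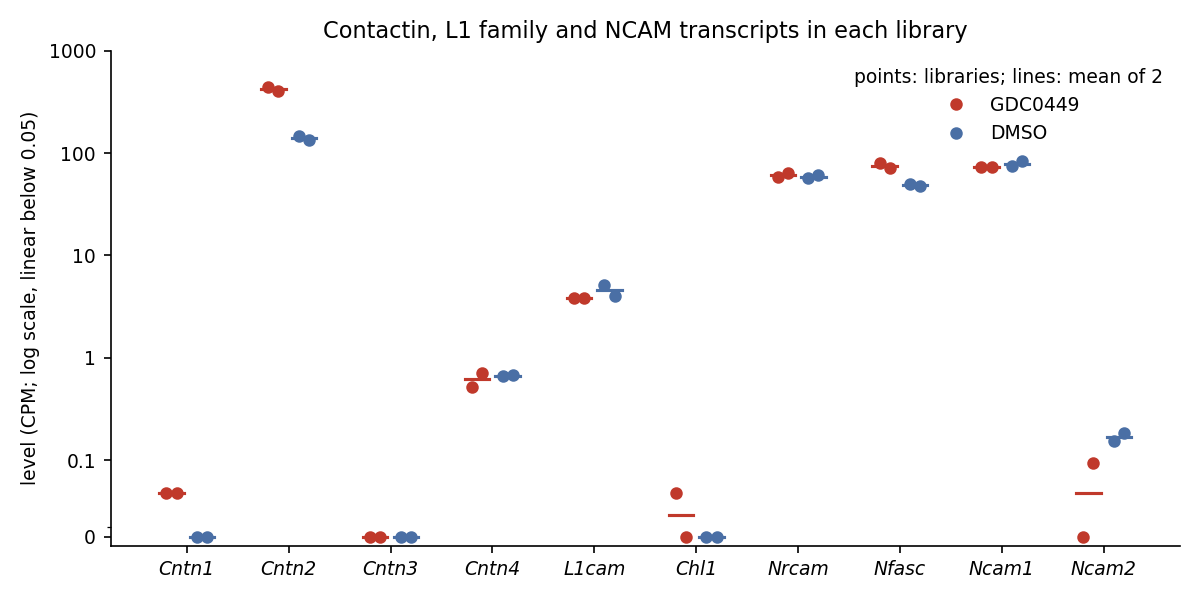
Level of each of the 10 genes in each library, in CPM on a log axis that is linear below 0.05. GDC0449 libraries are red and stand left of the blue DMSO libraries, and short lines mark the mean of 2. The groups lie far apart for Cntn2 and more narrowly apart for Nfasc, while Cntn1, Cntn3, Chl1 and Ncam2 sit at or near 0.

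Cntn2 (ENSMUSG00000053024, chromosome 1, 132509427 to 132543256 on the minus strand, GRCm38) encodes a lipid-anchored adhesion molecule of young axons. It had 9289 and 8505 reads with GDC0449, against 2914 and 2179 reads with DMSO. Its level was 441 and 403 CPM with GDC0449, against 148 and 135 CPM with DMSO. The groups did not overlap, which held for 33.6% of all tested genes in this direction. The lower GDC0449 library stood 2.72-fold above the higher DMSO library. The mean was 422 ± 26.7 CPM with GDC0449 and 142 ± 9.20 CPM with DMSO (SD, n = 2 each), a 2.97-fold difference with a 95% interval of 2.72 to 3.25. The log2 fold change was 1.57 with a standard error of 0.06 (edgeR quasi-likelihood adjusted p = 2.67e-27). In the fold changes of all 15472 tested genes it ranked 199 from the top. Of 2506 tested genes averaging 100 CPM or more, 3 had a larger log2 fold change. Without DMSO replicate 1 and without DMSO replicate 2 the edgeR adjusted p of Cntn2 was 0.00684 and 0.0105, with log2 fold changes of 1.64 and 1.50. Markers of postmitotic granule neurons were split: of 7 listed and 6 tested, Neurod1, Dcx and Tubb3 were called higher, while Rbfox3, Etv1 and Calb2 were not called and had log2 fold changes of -0.08, -0.04 and -0.36. The summed level of the list was 1112 and 1059 CPM with GDC0449, against 685 and 643 CPM with DMSO, and Gabra6, a marker of mature granule cells, had 0 reads. The summed astrocyte markers were at 270 and 262 CPM with GDC0449, against 155 and 170 CPM with DMSO, with 2 of 5 tested called higher (Slc1a2 and Aldoc). Slc1a2 alone was at 178 and 176 CPM with GDC0449, against 72.6 and 83.5 CPM with DMSO. Slc1a3, Gfap and S100b were not called, with log2 fold changes of -0.07, 0.69 and -0.60. The summed oligodendrocyte markers, mostly Mbp, were at 79.5 and 79.4 CPM with GDC0449, against 63.6 and 63.7 CPM with DMSO, with 0 of 4 tested called. Of the Purkinje and GABAergic markers, Gad1, Gad2 and Calb1 had 0 reads, and the sum, nearly all Lhx1, was 146 and 143 CPM with GDC0449, against 75.7 and 75.3 CPM with DMSO. The summed progenitor markers were at 2087 and 2196 CPM with GDC0449, against 2414 and 2340 CPM with DMSO, with 2 of 7 tested called higher (Atoh1 and Meis1). The direction of that sum rested on Mycn, and without it the sum was 1202 and 1283 CPM with GDC0449, against 1079 and 1057 CPM with DMSO. The summed microglial markers were at 2.18 and 2.65 CPM with GDC0449, against 4.68 and 6.33 CPM with DMSO, with 2 of 3 tested called lower (Tyrobp and Lyz2). The summed markers of fibroblasts and of endothelium and pericytes stood below 3 CPM in every library, with Col3a1 and Pecam1 called higher and Pdgfrb lower. Beside these counts of markers, 8.68% of all tested genes were called higher and 3.85% lower. The part of any of these cells in the Cntn2 and Nfasc results was not tested.

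Nfasc (ENSMUSG00000026442, chromosome 1, 132564690 to 132741797 on the minus strand) encodes neurofascin, an L1 family protein that gathers ion channels at the axon initial segment and the nodes of Ranvier. It had 1680 and 1499 reads with GDC0449, against 975 and 762 reads with DMSO. Its level was 79.7 and 71.0 CPM with GDC0449, against 49.6 and 47.3 CPM with DMSO. The groups did not overlap, as was the case for 33.6% of all tested genes in this direction. The 1.55-fold difference has a 95% interval of 1.40 to 1.73, which spans the fold threshold (log2 fold change 0.64, standard error 0.08, edgeR quasi-likelihood adjusted p = 1.37e-09). The call was lost without GDC0449 replicate 1, where the log2 fold change of 0.55 lay under the fold threshold, and without DMSO replicate 2, at an edgeR adjusted p of 0.0511. It was also lost on the deposited FPKM values (fragments scaled to gene length and depth), with log2 fold changes of 0.40 on log2(FPKM + 1) and 0.51 on log2(FPKM + 0.1) and limma adjusted p of 0.0978 and 0.0921.

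Cntn2 and Nfasc are neighbours on chromosome 1, on the same strand, 21433 bases apart, with no other protein-coding gene between them in GENCODE M21. Of the 5 nearest tested protein-coding genes below Cntn2, 0 were called higher and 1 lower, and of the 5 above Nfasc 1 was called higher and 1 lower. Of all tested genes, 8.68% were called higher and 3.85% lower. Lrrn2, a leucine-rich repeat protein of neurons and the first tested coding gene beyond Nfasc, was at 68.5 and 58.3 CPM with GDC0449, against 43.5 and 40.4 CPM with DMSO. Its log2 fold change was 0.59, and its call was lost with DESeq2, without a filter on low counts, on log2(FPKM + 1), and when GDC0449 replicate 1 or either DMSO replicate was left out. Tmem81, next to Cntn2 on the other side and on the other strand, was at 2.94 and 2.37 CPM with GDC0449, against 4.07 and 4.60 CPM with DMSO. Its lower call (log2 fold change -0.70) was lost with DESeq2, at an adjusted p of 0.139, without a filter on low counts, and on the deposited FPKM values. It was also lost when GDC0449 replicate 2 or either DMSO replicate was left out. Over the fits with a library left out, the log2 fold change ran from -0.86 to -0.55. Ppp1r15b, a regulatory subunit that directs dephosphorylation of the translation factor eIF2alpha, fell to 126 and 121 CPM with GDC0449, against 204 and 233 CPM with DMSO (log2 fold change -0.83, edgeR adjusted p = 2.03e-15). The Cntn2 value stands beside neighbours that were called in opposite directions or not called. Of those not called, Rbbp5 and Mdm4 were lower at an edgeR adjusted p under 0.05 alone (log2 fold changes -0.39 and -0.23). Pik3c2b and Plekha6 were higher on the same terms (0.40 and 0.32). A shared cause in this region was not tested.

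**Figure D2:**
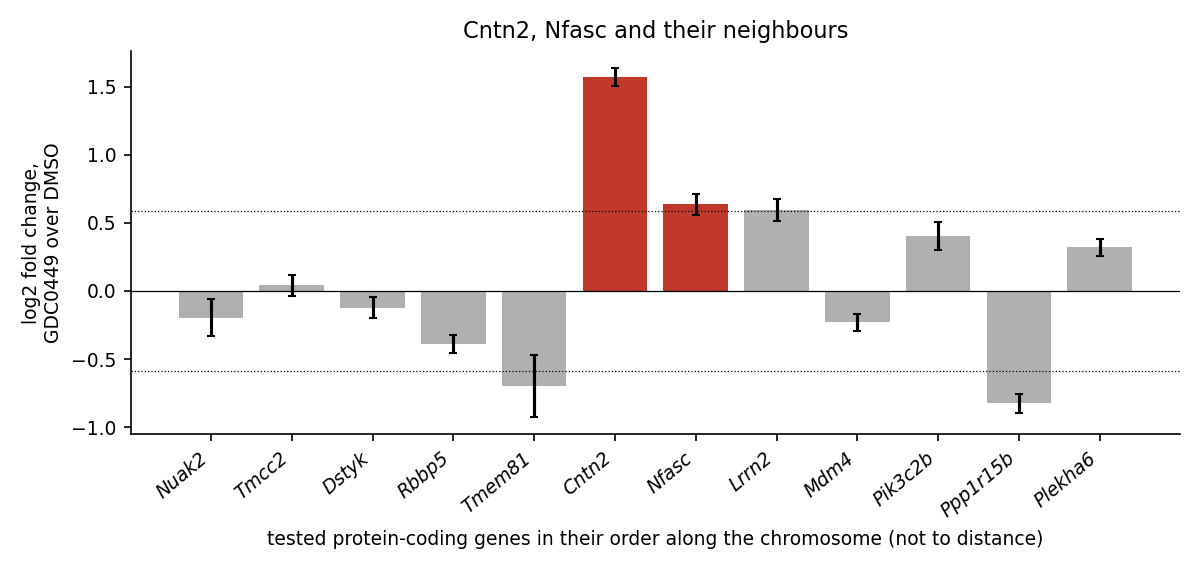
Log2 fold change (GDC0449 over DMSO) of Cntn2, Nfasc and the 5 nearest tested protein-coding genes on each side, in chromosome order. Whiskers are standard errors and dotted lines mark 1.5-fold. Cntn2 at 1.57 stands well above Nfasc at 0.64 and Lrrn2 at 0.59, while Tmem81 and Ppp1r15b lie below the lower line.

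The promoter windows of the 2 called genes are shown because they are neighbours that were higher together. Each runs from 250 bases before to 50 bases from a RefSeq start site (GRCm38.p6, minus strand, 5′ to 3′). The Cntn2 window is chr1:132542891-132543190 and the Nfasc windows are chr1:132707277-132707576 (upstream) and chr1:132642809-132643108 (downstream), named by their order to each other. Both Nfasc windows lie inside the GENCODE M21 gene, which on the minus strand begins at 132741797. Neither covers that end of the gene. Capitals mark matches to the motifs searched on both strands: the Gli consensus GACCACCCA, and the E-boxes CAGCTG and CAGATG, which neuronal basic helix-loop-helix factors can bind.
Cntn2: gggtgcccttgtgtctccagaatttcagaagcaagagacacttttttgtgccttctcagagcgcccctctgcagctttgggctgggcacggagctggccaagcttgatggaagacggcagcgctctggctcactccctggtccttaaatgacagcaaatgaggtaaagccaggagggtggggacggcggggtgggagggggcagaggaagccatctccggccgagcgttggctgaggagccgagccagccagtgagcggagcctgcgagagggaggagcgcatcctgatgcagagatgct
Nfasc, upstream window: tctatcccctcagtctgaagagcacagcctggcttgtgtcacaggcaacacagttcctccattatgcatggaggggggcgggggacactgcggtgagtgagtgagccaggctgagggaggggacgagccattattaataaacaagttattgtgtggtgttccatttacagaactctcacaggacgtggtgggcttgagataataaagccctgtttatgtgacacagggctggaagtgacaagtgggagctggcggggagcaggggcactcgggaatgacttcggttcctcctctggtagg
Nfasc, downstream window: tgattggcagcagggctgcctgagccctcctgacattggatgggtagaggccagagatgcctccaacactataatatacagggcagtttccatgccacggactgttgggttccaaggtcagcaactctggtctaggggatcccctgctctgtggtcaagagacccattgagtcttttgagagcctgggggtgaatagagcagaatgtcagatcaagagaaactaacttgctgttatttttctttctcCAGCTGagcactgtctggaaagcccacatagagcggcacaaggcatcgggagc

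The Gli consensus was in none of the 14 windows of the 9 genes with an entry, and 0.253% of all 32851 promoter windows held it. CAGCTG was found in the downstream Nfasc window, beginning 3 bases before a RefSeq start site that lies inside the GENCODE gene. CAGCTG was also in both Cntn4 windows, which overlap each other. It was in 16.3% of all windows. CAGATG was found in the L1cam windows, which also overlap, and in 17.2% of all windows. The Cntn2 window held none of the 3 motifs, and its GC content was 61.3%, against a median of 52.7% over all windows. These are matches of letters and say nothing of binding.

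Nrcam and Ncam1, the other abundant genes of the set, were close between groups. Nrcam (ENSMUSG00000020598, chromosome 12, 44328885 to 44601964) encodes an L1 family protein that acts with contactins and neuropilins in axon growth. It was at 59.1 and 63.4 CPM with GDC0449, against 56.6 and 61.5 CPM with DMSO, and the groups overlapped. The fold change was 1.04 with a 95% interval of 0.934 to 1.16 (edgeR adjusted p = 0.617). Its direction turned on the deposited FPKM values, with log2 fold changes of -0.15 and -0.18 at the 2 pseudocounts, and without DMSO replicate 1, at -0.0083.

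Ncam1 (ENSMUSG00000039542, chromosome 9, 49502136 to 49798925) encodes the neural cell adhesion molecule of neurons and glia. It was at 72.7 and 72.7 CPM with GDC0449, against 74.1 and 83.3 CPM with DMSO. Both GDC0449 libraries lay below both DMSO libraries, as for 32.2% of all tested genes in this direction. The fold change was 0.926 with a 95% interval of 0.836 to 1.02 (edgeR adjusted p = 0.246). The intervals of both genes exclude a 1.5-fold difference in either direction. In Ncam1, 4.81% of the exonic bases are shared with the predicted gene Gm11149 on the other strand, and the strand setting of the counting is not given in the sources used here.

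L1cam (ENSMUSG00000031391, chromosome X, 73853778 to 73896105), the founding member of the L1 family, acts in axon growth and bundling. It had 81 and 81 reads with GDC0449, against 101 and 65 reads with DMSO. Its level was 3.84 and 3.84 CPM with GDC0449, against 5.14 and 4.04 CPM with DMSO. Both GDC0449 values lay under both DMSO values, as for 32.2% of all tested genes. The gap between the groups was smaller than that between the DMSO replicates. The fold change of 0.829 has a 95% interval of 0.622 to 1.10 (edgeR adjusted p = 0.327), which a 1.5-fold decrease lies within. On the deposited FPKM values the direction turned, with log2 fold changes of 0.16 and 0.27 at the 2 pseudocounts.

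Cntn4 (ENSMUSG00000064293, chromosome 6, 105677660 to 106699310), a contactin studied for its part in olfactory and visual wiring in mice, had 11 and 15 reads with GDC0449, against 13 and 11 reads with DMSO. The ranges overlapped. Its fold change of 0.919 has a 95% interval of 0.482 to 1.75, so a difference of 1.5-fold was not detectable at this depth (edgeR adjusted p = 0.870). Without GDC0449 replicate 1 the log2 fold change turned to 0.08.

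**Figure D3:**
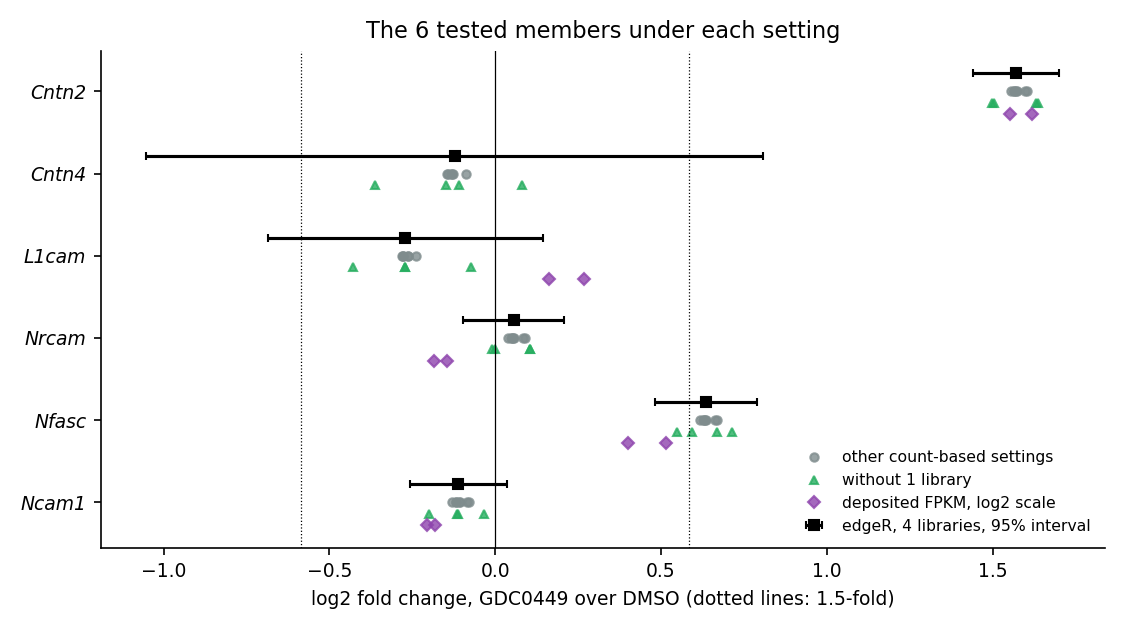
Log2 fold change (GDC0449 over DMSO) of the 6 tested genes: black squares with 95% intervals for edgeR on 4 libraries, and symbols below for the other settings (Cntn4 did not pass the filter on FPKM values). Dotted lines mark 1.5-fold. Cntn2 stays between 1.50 and 1.64 in all settings shown, Nfasc straddles the upper line, and L1cam and Nrcam change sign on the FPKM scale.

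The remaining 4 genes were at or near the limit of detection. Cntn3 had 0 reads in the 4 libraries together, against 77944561 reads in genes, and a count of 0 allows up to 3 reads, or 0.0385 CPM (counting error only). Chl1, the L1 family member known as close homolog of L1, had 1 read in GDC0449 replicate 1 and 0 in the others. Cntn1, the contactin of maturing granule cell axons, had 1 and 1 reads with GDC0449, against 0 and 0 reads with DMSO. Ncam2, an NCAM known from olfactory axons in mice, had 0 and 2 reads with GDC0449, against 3 and 3 reads with DMSO. None of these 4 passed the filter, no fold change is given for them, and the highest deposited FPKM among them was 0.0101, for Ncam2 in DMSO replicate 1. Cntn3, Chl1 and Cntn4 lie within 4.54 Mb of chromosome 6. The only other protein-coding gene in that stretch in GENCODE M21 is Cntn6, a further contactin, with 1 read in all libraries together.

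Levels of different genes were compared per length, as RPKM (CPM per kilobase of merged exons). Cntn2 was highest in both groups, at 47.4 and 43.3 RPKM with GDC0449, against 15.9 and 14.5 RPKM with DMSO. Ncam1 followed at 8.39 and 8.40 RPKM with GDC0449, against 8.55 and 9.61 RPKM with DMSO. With GDC0449, Nfasc at 5.63 and 5.02 RPKM stood above Nrcam at 4.42 and 4.75 RPKM. With DMSO the order of these neighbours was the other way, Nrcam at 4.23 and 4.60 RPKM and Nfasc at 3.51 and 3.35 RPKM. The order of Nfasc and Nrcam in the GDC0449 libraries depends on the length used: with the longest transcript in place of merged exons, Nrcam was at 9.76 and Nfasc at 7.74 on average. L1cam was at 0.523 and 0.522 RPKM with GDC0449, against 0.700 and 0.549 RPKM with DMSO. Cntn4 stood below 0.1 RPKM in every library.

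Summed over the 10 genes, the level was 657 and 615 CPM with GDC0449, against 335 and 332 CPM with DMSO. Cntn2 made up 67.1% and 65.5% of this sum with GDC0449, against 44.3% and 40.7% with DMSO. Without Cntn2 the sum was 216 and 212 CPM with GDC0449, against 186 and 197 CPM with DMSO. Without Cntn2 and Nfasc it was 136 and 141 CPM with GDC0449, against 137 and 150 CPM with DMSO, so the groups overlapped. The difference in the sum thus lay mostly in Cntn2. In bulk samples, more cells with a transcript and more of it per cell cannot be told apart.

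**Figure D4:**
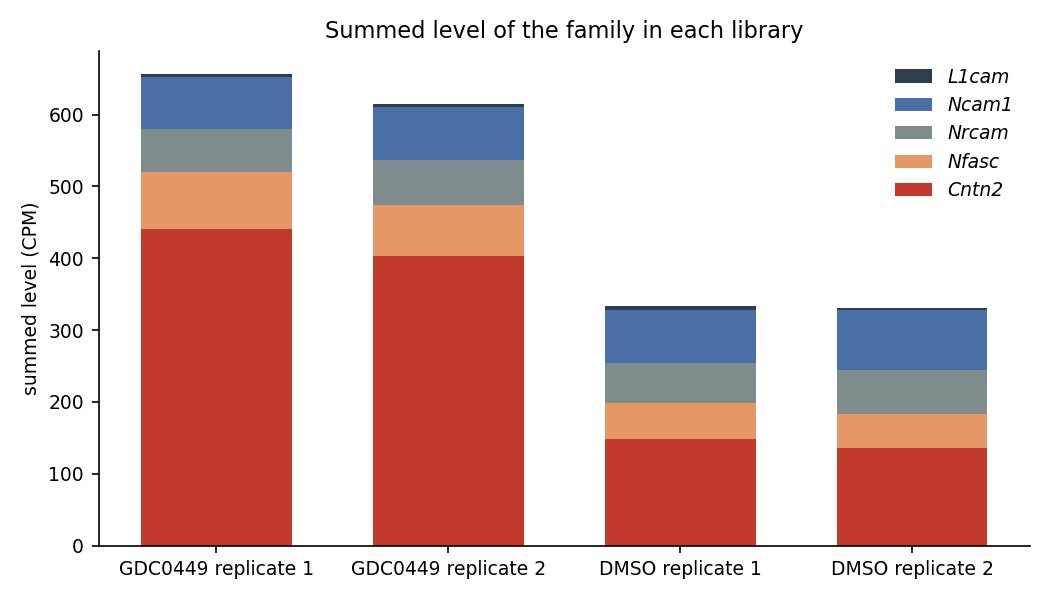
Summed level of the family in each library in CPM, with each gene as a segment. Genes under 1 CPM are too small to be drawn and were left out. The red Cntn2 segment makes up 67.1% and 65.5% of the sum with GDC0449, against 44.3% and 40.7% with DMSO, while the Nrcam and Ncam1 segments are of similar height in the 4 libraries.

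The genes with the most similar profile to each called member were taken from 10307 other protein-coding genes averaging 5 CPM or more. Likeness was the distance between the log2 CPM values of the 4 libraries, each centred on the gene's mean. Nearest to Cntn2 were Rab15, a Rab GTPase of the endocytic recycling route, at 29.1 and 28.3 CPM with GDC0449, against 9.57 and 8.94 CPM with DMSO, then Ucp2 and Gria3. Nearest to Nfasc were Adgrg1, an adhesion receptor, at 168 and 150 CPM with GDC0449, against 105 and 99.9 CPM with DMSO, then Slc7a4 and Mical2. With 4 libraries these distances describe the profiles only.

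Partners of the family inside the cell were given by 2 lists, in which 7 of 11 and 9 of 12 tested genes had a positive log2 fold change, beside 50.9% of all tested genes. Of 12 ankyrin, spectrin and membrane-linker genes 11 were tested, 1 was called higher and 0 lower by edgeR and by DESeq2, with a median log2 fold change of 0.16. That count is near the share of all tested genes called higher, 8.68%. At an unadjusted edgeR p below 0.05, 6 were higher and 2 lower, beside 22.3% and 21.8% of all tested genes. The riser was Ank3, which encodes ankyrin-G, the adaptor that binds L1 family tails at the axon initial segment. It was at 645 and 615 CPM with GDC0449, against 357 and 354 CPM with DMSO, a 1.77-fold difference (edgeR adjusted p = 2.00e-17). Ank2, encoding ankyrin-B, was at 271 and 262 CPM with GDC0449, against 281 and 279 CPM with DMSO, and was not called. Of 12 signalling partners, all tested, 2 were called higher and 0 lower by both tools, with a median of 0.38, and 8 were higher and 3 lower at an unadjusted edgeR p below 0.05. Dcx, a microtubule protein of migrating neurons that can bind phosphorylated neurofascin, was at 216 and 212 CPM with GDC0449, against 89.0 and 98.2 CPM with DMSO (edgeR adjusted p = 1.11e-21). Dpysl3, of the collapsin response mediator family, was at 75.2 and 84.7 CPM with GDC0449, against 51.6 and 49.2 CPM with DMSO. Its call was lost without GDC0449 replicate 2, where the log2 fold change was 0.57.

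Extracellular partners had calls in both directions. Of 20 listed, 12 were tested, 2 were called higher and 1 lower, beside 8.68% and 3.85% of all tested genes. Their median log2 fold change was 0.04. At an unadjusted edgeR p below 0.05, 4 were higher and 4 lower, beside 22.3% and 21.8% of all tested genes. Ptprg, a receptor phosphatase that binds several contactins, was at 166 and 162 CPM with GDC0449, against 103 and 106 CPM with DMSO (1.56-fold, edgeR adjusted p = 5.83e-12). Ncan, a chondroitin sulphate proteoglycan that binds L1cam and Ncam1, was at 78.6 and 72.3 CPM with GDC0449, against 48.3 and 45.7 CPM with DMSO (1.60-fold, edgeR adjusted p = 1.53e-10). On log2(FPKM + 1) its log2 fold change of 0.583 lay under the fold threshold. Tnc, a matrix glycoprotein that contactins can bind, was scarce, at 0.854 and 1.66 CPM with GDC0449, against 2.29 and 2.48 CPM with DMSO. Its call (edgeR adjusted p = 0.0170) was lost without GDC0449 replicate 1, at 0.314, without DMSO replicate 1, at 0.217, and without DMSO replicate 2, at 0.253. DESeq2 gave an adjusted p of 0.191. Ptprz1 and Tnr, which encode ligands of Cntn1, had 0 reads in all libraries, as did Cntnap2, the membrane partner of Cntn2 at mature axons.

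Of the Cntnap family and further contactins, 3 of 9 were tested and 0 were called in either direction by edgeR or DESeq2. Over all tested genes edgeR called 8.68% higher and 3.85% lower, so 0 calls among so few genes say little. At an unadjusted p below 0.05 edgeR had 1 lower, beside 21.8% of all tested genes. This was Cntnap4, at 0.854 and 1.18 CPM with GDC0449, against 1.88 and 1.49 CPM with DMSO (edgeR adjusted p = 0.0873). Cntnap1, a partner of Cntn1, was at 76.4 and 70.6 CPM with GDC0449, against 76.7 and 72.5 CPM with DMSO. Of 8 genes listed under polysialylation and shedding, 4 were tested and 0 were called by edgeR or DESeq2. At an unadjusted edgeR p below 0.05, 1 was higher, beside 22.3% of all tested genes. That gene was Adam22, of the ADAM family, at 10.1 and 11.4 CPM with GDC0449, against 7.33 and 7.82 CPM with DMSO; its log2 fold change of 0.51 lay under the fold threshold (edgeR adjusted p = 0.00526). St8sia2 and St8sia4, the sialyltransferases that modify Ncam1, had 0 reads and 1 read in the 4 libraries together. Adam10 and Adam17, proteases that cut L1 family and NCAM ectodomains, were tested and not called. Bace1 was also tested and not called.

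A list of 28 other neuronal immunoglobulin adhesion genes had 25 tested members, of which 10 were called higher and 0 lower by edgeR, beside 8.68% and 3.85% of all tested genes. Their median log2 fold change was 0.38, beside 0.01 for all tested genes. At an unadjusted edgeR p below 0.05, 20 were higher and 1 lower, beside 22.3% and 21.8% of all tested genes. DESeq2 called 8 higher and 0 lower, beside 5.41% and 3.11% of the 14353 genes to which it gave an adjusted p. Mdga1, a lipid-anchored protein that blocks neuroligin binding at synapses, was at 562 and 536 CPM with GDC0449, against 293 and 262 CPM with DMSO (1.98-fold, edgeR adjusted p = 1.12e-19). Ntm, neurotrimin of the IgLON family, was scarce but separated, at 3.75 and 4.08 CPM with GDC0449, against 0.764 and 0.807 CPM with DMSO (4.96-fold, edgeR adjusted p = 1.43e-08). Thy1, a lipid-anchored surface protein of neurons, averaged 18.6 ± 0.452 CPM with GDC0449 and 9.94 ± 0.0869 CPM with DMSO (SD, n = 2 each; 1.87-fold). Igsf21, a synaptic adhesion protein, Iglon5, of the IgLON family, and Cadm3, of the SynCAM family, were also called higher, at 1.75-fold, 1.91-fold and 2.54-fold. The call of Cadm3 was lost without DMSO replicate 2, at an edgeR adjusted p of 0.0557, and on the FPKM values. Scarce too were Dscaml1, Sdk2 and Kirrel2, averaging 2.58, 1.80 and 2.16 CPM with GDC0449, against 1.45, 0.972 and 0.622 CPM with DMSO. Their edgeR adjusted p were 0.0275, 0.0352 and 1.06e-04. Together with Jam2, these genes were the other 4 called higher, and all 4 were named after their values were seen. The count was 5 without DMSO replicate 2 and 6 without DMSO replicate 1, and 5 on the FPKM values.

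**Figure D5:**
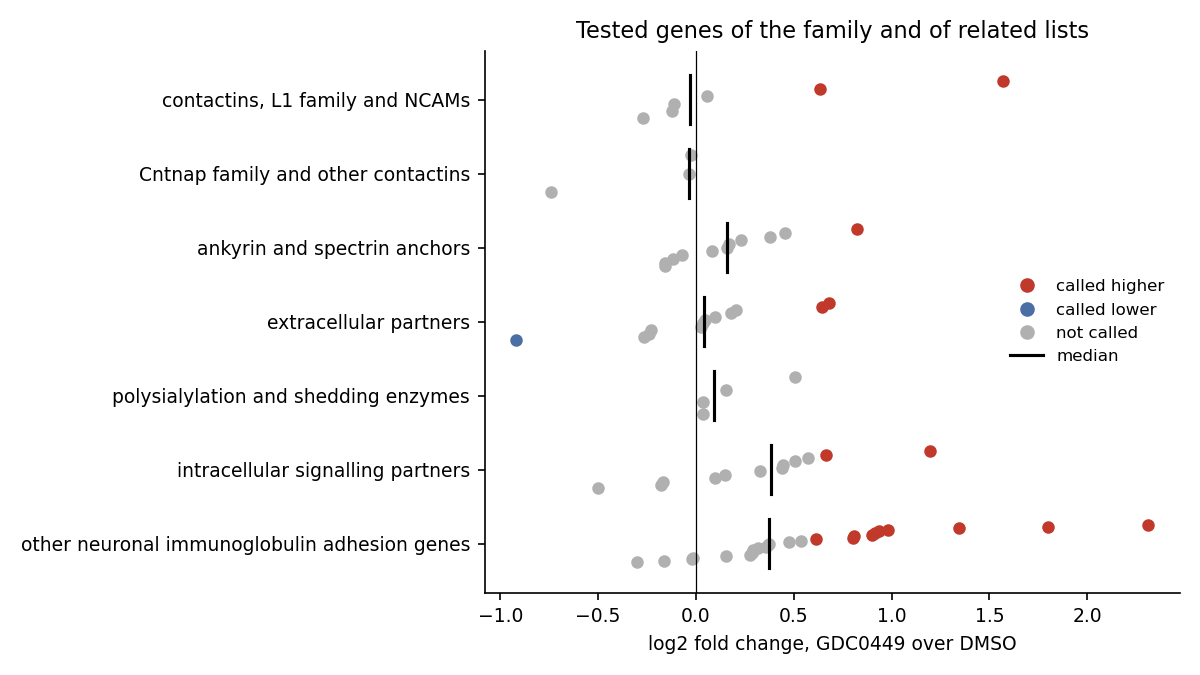
Log2 fold change (GDC0449 over DMSO) of each tested gene of the family and of 6 related lists, 1 point per gene. Red points were called higher, blue lower, grey not called, and black lines mark the medians. Of the lists, the other neuronal immunoglobulin adhesion genes have 10 called points on the upper side and 0 on the lower. The Cntnap list and the polysialylation and shedding list have 0 called points. St8sia2 and St8sia4 were not tested and have no point.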

How the data were processed

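Total RNA from 4 libraries was sequenced. Per the submitters' processing notes, reads were trimmed with Trim Galore, mapped to mm10 with HISAT2 and counted with HTSeq 0.11.1, and DESeq2 1.26.0 was used. Raw counts and FPKM values, both made by the authors, stand side by side in the deposited table. For the FPKM tool, annotation release and strand setting, the sources used here give nothing. The table's 6 entries that name no gene were left out, among them reads in no feature (12.3% to 14.4% of reads). The 546 genes with 0 counts but an FPKM of at least 1 in all libraries include 0 of the 10 genes.

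The test on counts was that of edgeR 4.0.16 under R 4.3.3 (TMM scaling, default filter, quasi-likelihood test, 2 libraries a group, Benjamini-Hochberg adjustment over all 15472 tested genes), after a test on simulated data. Alternatives used DESeq2 1.42.0, limma 3.58.1, other scalings, filters and thresholds, the FPKM values with limma (pseudocounts 1 and 0.1), and fits without each library. Coordinates and exon lengths are from GENCODE M21 (55480 of 55573 identifiers matched) and promoters from RefSeq. The genes and lists were chosen with earlier results of these data known. From each related list, called genes were named, up to the 6 with the smallest p, and otherwise the 2 with the smallest p. Other genes of the lists were named after their values were seen. Floors and intervals of counts cover counting error only.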

Additional observations from a re-analysis of the deposited data

How the results depend on the processing

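Cntn2 was called in every setting tried, with log2 fold changes of 1.50 to 1.64. The number of the 10 genes called higher was 1 in place of 2 on log2(FPKM + 1), on log2(FPKM + 0.1) and at a fold threshold of 2, and 1 to 2 with a library left out. Over all genes, the higher calls (1343) became 744 with no filter, 799 with a filter at 5 CPM, 777 with DESeq2, 498 and 630 on the 2 FPKM scales, 648 at a fold threshold of 2, 2794 with none, and 500 to 1221 with a library left out. The lower calls (596) became 366 at 5 CPM, 341 on log2(FPKM + 1), 312 at a fold threshold of 2, 2793 with none, and 351 to 605 with a library left out. Extracellular partners had 1 higher call on log2(FPKM + 1), and 0 lower calls with no filter, at 5 CPM, with DESeq2, on both FPKM scales and in 3 fits with a library left out (0 to 1). With a library left out, the polysialylation and shedding list had 0 to 1 higher calls and signalling partners had 1 to 2. In the former list Adam22 was called without GDC0449 replicate 1, at a log2 fold change of 0.59. The other immunoglobulin adhesion genes had 5 to 11 higher calls with a library left out, 6 at 5 CPM and 5 on both FPKM scales.

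Directions turned only in genes that were not called. Cntn4 was at 0.080 without GDC0449 replicate 1 and ran from -0.36 to 0.080 over the fits with a library left out. L1cam was at 0.16 on log2(FPKM + 1) and 0.27 on log2(FPKM + 0.1), Nrcam at -0.15 and -0.18 on the same scales and at -0.0083 without DMSO replicate 1 (-0.0083 to 0.11 with a library left out). Cntnap1 was at 0.011 with upper-quartile scaling, 0.0048 at 5 CPM, 0.040 and 0.045 on the FPKM scales, 0.030 without GDC0449 replicate 2 and 0.016 without DMSO replicate 1 (-0.083 to 0.030 with a library left out). The cause was not tested. A fit without a library leaves 1 in its group, which is assumed to vary like the others.

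The replicate numbers occur in both groups, but the deviations of same-numbered libraries correlated at 0.0351 and the labels give no shared origin. With the replicate block the log2 fold changes were 1.57 for Cntn2 and 0.64 for Nfasc, no call among the 10 genes changed, and 1408 genes were called higher and 615 lower.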

Other observations

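The deposited FPKM values and the RPKM computed from the counts kept different ratios from library to library for some of the 10 genes. For Cntn2 the ratio of FPKM to RPKM lay between 0.832 and 0.886. For L1cam it ran from 0.831 to 2.64 and for Cntn4 from 0.245 to 0.836. L1cam had 81 reads in each GDC0449 library, yet its FPKM was 1.38 in replicate 1 and 0.434 in replicate 2. Ncam1, with 1532 and 1535 reads in those libraries, had 5.79 and 8.65 FPKM. The cause was not tested.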
